A study of Mus musculus with 11 samples.

Results

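The keratin genes of the mouse were examined as a family: every protein-coding gene of the GRCm38.p6 RefSeq table whose symbol is Krt followed directly by a number, on chromosomes 11 and 15. There were 53 such genes of 21627 protein-coding genes, 27 on chromosome 11 and 26 on chromosome 15. The rule used names and positions and no measured value, but members, classes and lists were chosen with earlier results of these data known. Of the 53, 28 were type I and 25 type II, and Krt18 was the type I gene that lies in the chromosome 15 cluster. By their usual sites of expression, 6 were keratins of simple epithelia, 20 of stratified epithelia (3 basal, 6 of the internal or mucosal layers, 5 cornified, 6 of stress and gland ducts), 23 of hair (8 of the root sheath, 15 of the shaft), and 4 were not classified (Krt80, Krt88, Krt90 and Krt222).

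Keratins form the intermediate filaments of epithelial cells, and each filament is built from pairs of an acidic type I and a basic type II chain. The 2 chain types are encoded by 2 gene clusters, and the pair a cell makes follows its kind: Krt8 with Krt18 in simple epithelia, Krt5 with Krt14 in basal cells of stratified epithelia, Krt4 with Krt13 in the layers above them in the esophagus, Krt1 with Krt10 in cornified skin, and Krt6a or Krt6b with Krt16 or Krt17 in stressed or wounded epithelium. The adult mouse esophagus is lined by a stratified squamous epithelium, which develops from an embryonic tube of simple, Krt8-positive cells.

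Open chromatin was measured by ATAC-seq, in which a transposase cuts accessible DNA, and the authors' list of open intervals was used for each of 11 libraries. WT was 3 libraries of wild type CD1 esophagus sorted for low EpCAM, an epithelial adhesion protein. SmoM2 was 3 libraries of Krt5-SmoM2 esophagus on CD1, sorted for high EpCAM, where SmoM2 is an activated form of the Hedgehog receptor component Smoothened. SmoM2-Sox9cKO was 3 libraries of Krt5-SmoM2-Sox9fl/fl esophagus, also sorted for high EpCAM, with no strain in the labels, so both SmoM2 groups carry the transgene and differ in the floxed alleles of Sox9, a transcription factor gene. Embryo was 2 libraries of embryonic day 13 esophagus from Krt8YFP embryos sorted on YFP, again with no strain given. Ages of the adults, their sex, the animals behind each library and the constructs of the transgenes are not given in the labels, so the p-values measure the spread between these libraries, which may be technical. WT and the SmoM2 groups differ in genotype and in the EpCAM gate, and these cannot be told apart. Interval lists do not show whether the floxed Sox9 sequence was deleted, and that was not checked here.

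The adult lists held 69116 to 87966 intervals and the Embryo lists 24927 and 14281. Merged at an overlap of 1 bp or more they gave 124941 regions, and a region counted as open in a library whose list had an interval in it, and as closed otherwise. Of 6 epithelial marker genes (Epcam, Cdh1, Cldn7, Trp63, Krt5 and Krt14), 5 had an open interval within 1 kb of a gene end in each of the 9 adult libraries, and 4 and 3 did in Embryo. Trp63 had none in any library, and Krt5 had none in Embryo. Among markers of other cell types, gene ends were open for 1 of 5 endothelial, 1 to 3 of 5 fibroblast, 2 to 4 of 4 muscle, 1 to 3 of 5 immune and 1 to 4 of 4 glial genes in the adult libraries. Intervals at 4 Y-linked genes were present in 6 adult libraries (1 WT, 3 SmoM2, 2 SmoM2-Sox9cKO) and in neither Embryo library.

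The promoters shown include Krt5 and Krt13, whose windows were open in every adult library. The others shown are the simple keratins Krt20, Krt7, Krt8 and Krt18, whose windows were open in some libraries only. Windows of Krt23, Krt24, Krt75 and Krt78 were also open in some libraries only, and their sequences are not shown. RefSeq promoter entries (GRCm38.p6) matched 36 of the 53 genes, with 37 starts. Each sequence is the 250 bases before the start, 5′ to 3′ on the gene's strand. Capitals mark matches on either strand to any of 6 motifs: the TATA box TATAAA, the GC box GGGCGG, the AP-1 site TGANTCA, the forkhead core TGTTTAC, the Sox core AACAAT and the Gli consensus GACCACCCA. Krt5 lies on the minus strand, chr15:101712906-101713155. Krt13 lies on the minus strand, chr11:100121567-100121816. Krt20 lies on the minus strand, chr11:99438154-99438403. Krt7 lies on the plus strand, chr15:101412153-101412402. Krt8 lies on the minus strand, chr15:102004343-102004592. Krt18 lies on the plus strand, chr15:102027966-102028215.
Krt5: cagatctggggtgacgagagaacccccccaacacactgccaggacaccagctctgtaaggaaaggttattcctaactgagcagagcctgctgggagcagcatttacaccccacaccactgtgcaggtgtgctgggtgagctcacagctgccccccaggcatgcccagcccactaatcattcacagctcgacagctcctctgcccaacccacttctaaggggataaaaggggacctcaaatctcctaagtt
Krt13: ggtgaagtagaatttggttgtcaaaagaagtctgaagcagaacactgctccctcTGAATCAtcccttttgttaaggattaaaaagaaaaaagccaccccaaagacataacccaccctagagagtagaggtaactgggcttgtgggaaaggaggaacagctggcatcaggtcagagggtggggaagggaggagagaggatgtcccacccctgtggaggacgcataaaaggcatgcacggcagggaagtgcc
Krt20: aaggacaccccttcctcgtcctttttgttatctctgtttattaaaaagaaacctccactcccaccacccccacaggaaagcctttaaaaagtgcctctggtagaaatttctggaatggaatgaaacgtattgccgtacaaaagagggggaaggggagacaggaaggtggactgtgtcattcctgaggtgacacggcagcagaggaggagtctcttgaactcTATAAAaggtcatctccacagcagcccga
Krt7: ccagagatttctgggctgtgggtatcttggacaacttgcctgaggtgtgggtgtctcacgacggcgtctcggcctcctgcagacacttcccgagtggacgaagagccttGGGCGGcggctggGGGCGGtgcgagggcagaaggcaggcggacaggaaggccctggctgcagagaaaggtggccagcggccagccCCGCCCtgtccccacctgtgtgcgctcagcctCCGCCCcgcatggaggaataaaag
Krt8: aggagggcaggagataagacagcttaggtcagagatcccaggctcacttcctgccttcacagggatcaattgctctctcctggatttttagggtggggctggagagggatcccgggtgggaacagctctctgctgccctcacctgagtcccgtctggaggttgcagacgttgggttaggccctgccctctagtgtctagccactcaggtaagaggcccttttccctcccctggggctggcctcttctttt
Krt18: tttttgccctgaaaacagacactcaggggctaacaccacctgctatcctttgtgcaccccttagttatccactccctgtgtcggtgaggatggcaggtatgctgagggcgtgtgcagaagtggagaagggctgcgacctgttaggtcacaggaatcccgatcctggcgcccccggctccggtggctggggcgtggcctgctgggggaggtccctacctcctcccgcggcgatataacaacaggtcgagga
The capitals show 1 TATA box in Krt20, 1 AP-1 match in Krt13 and 4 GC boxes in Krt7, and none of the 6 motifs in Krt5, Krt8 or Krt18.

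Over all 37 keratin starts the TATA box was the motif most often present, in 17 (45.9%) against 11.7% of the 21044 promoters of the table. It was held by 13 of 17 hair keratin promoters, 7 of 8 in the root sheath genes and 6 of 9 in the hair shaft genes, by 3 of 14 of stratified keratins (Krt10, Krt12 and Krt76) and by 1 of 5 of simple keratins (Krt20). These counts take a match on either strand. In Krt72 of the root sheath and Krt84 of the hair shaft the only match was on the opposite strand. The GC box was in 2 keratin promoters (Krt7 and Krt75; 5.41%) against 43.0% of all. The AP-1 site was in both starts of Krt13 and in no other (5.41% against 6.17%), and the Sox core in Krt42 and Krt73 (5.41% against 8.07%). No keratin promoter held the forkhead core (2.64% of all) or the Gli consensus (0.162% of all) in this window. The median GC content was 48% in keratin promoters and 55.6% in all. The letters of a motif describe the sequence and do not show that a factor binds there. The matched promoters leave out 17 keratins, among them Krt1, Krt4, Krt6a, Krt6b, Krt15, Krt16, Krt17 and Krt19, and the table's starts for Krt2, Krt10, Krt12, Krt14, Krt36 and Krt78 lie inside the gene body, so these promoters and windows may not be those of the main start.

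Keratin loci held 194 regions, each assigned to a gene because its midpoint lay nearest to that gene body and within 100 kb. Krt80, a type II keratin, had the most (15), then Krt78 (10). Type I genes had 101 and type II genes 93; simple keratins had 34, stratified 88, hair 53 and the unclassified 19. There were 4 genes with none (Krt25 and Krt26 of the root sheath, Krt34 and Krt81 of the hair shaft). The span from Krt222 to Krt42 on chromosome 11 (1037.2 kb) held 110.9 regions per Mb against 67.0 for the whole chromosome, and the span from Krt80 to Krt18 on chromosome 15 (683.7 kb) held 136.0 against 52.0. Within the type I cluster the regions were unevenly spread. The 310.5 kb from Krt222 to Krt40 held 119.2 per Mb and the 258.8 kb from Krt33a to Krt42 held 177.8, while the 468.0 kb between them, where the Krtap genes for hair keratin-associated proteins lie, held 68.4, close to the chromosome's value. Keratin regions had a median width of 719 bp (693 bp over all regions), and 27.3% had their midpoint in a gene body against 54.2% of all regions.

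**Figure D1:**
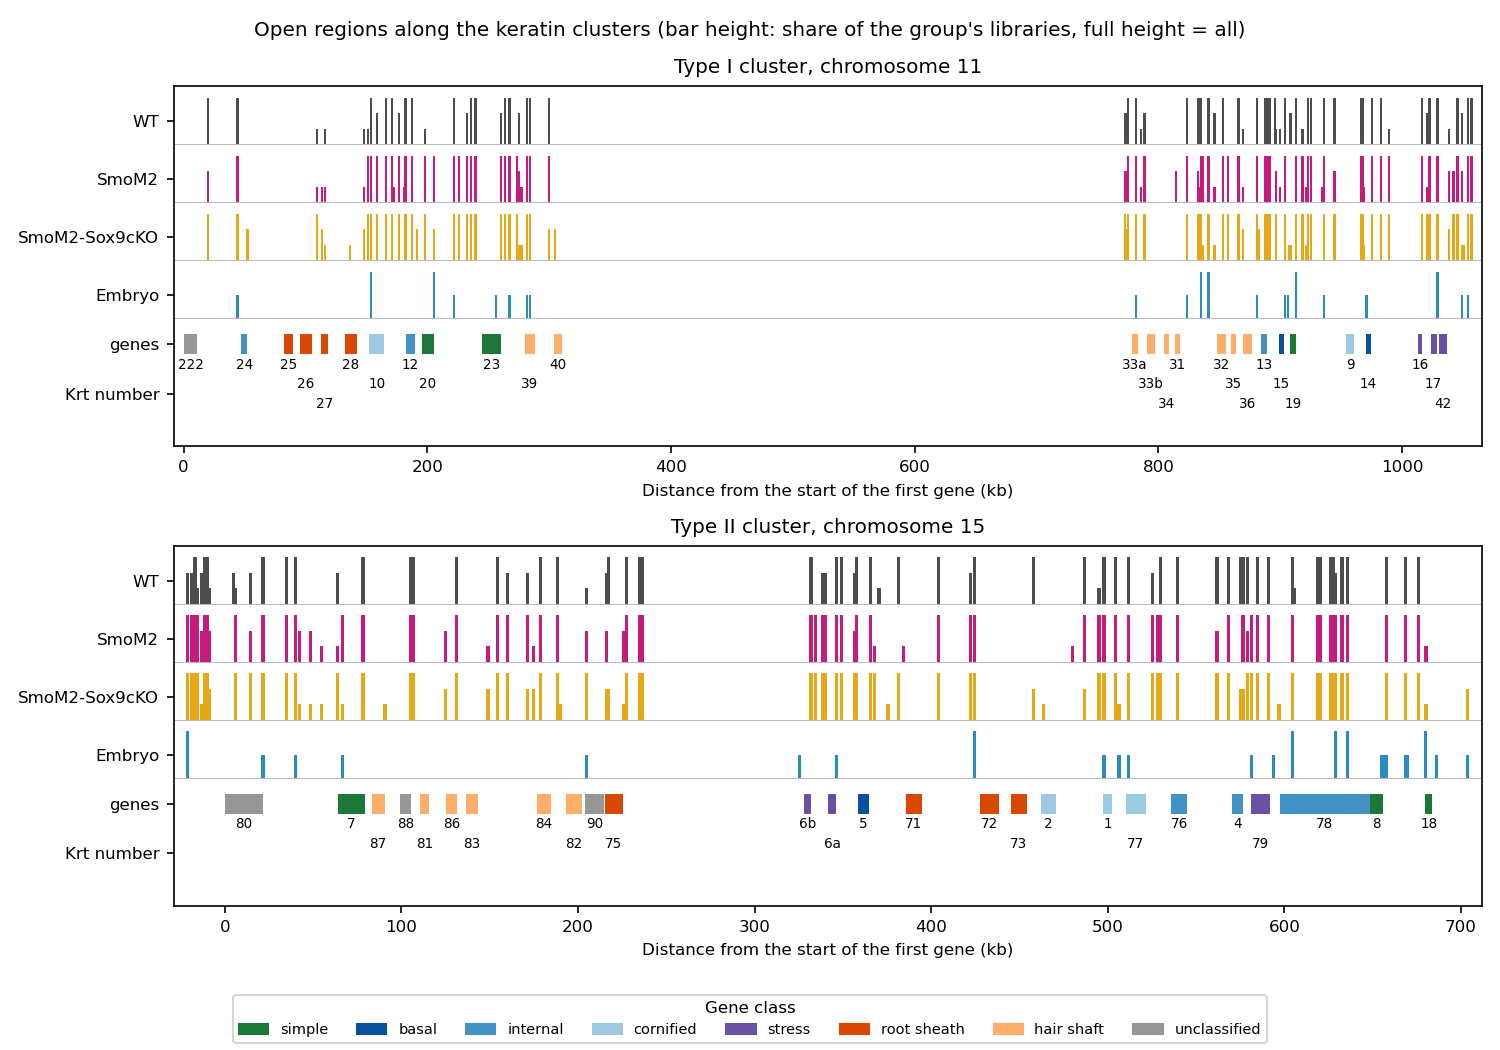
Regions of keratin loci along the type I and type II clusters, by distance in kb from the start of the first gene; each bar is a region, its height the share of the group's libraries in which it was open, with gene bodies below coloured by class and labelled by Krt number. Only regions assigned to a keratin gene are drawn, so the Krtap stretch between Krt40 and Krt33a is blank. The Embryo row has few bars, with 12 regions open in both libraries, among them regions at Krt20, Krt19 and Krt18.

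Of the 194 regions, 81 (41.8%) were open in all 9 adult libraries, against 35.6% of all regions, and 8 (4.12%) in all 11 libraries, against 8.45%. The share open in each library was 56.2, 61.3 and 67.0% in WT, 67.5, 66.0 and 79.4% in SmoM2, 83.0, 69.1 and 76.8% in SmoM2-Sox9cKO, and 20.1 and 9.28% in Embryo. Over all regions the group means were 57.9 ± 3.92% in WT, 63.1 ± 4.72% in SmoM2 and 60.4 ± 3.65% in SmoM2-Sox9cKO (SD, n = 3), and keratin regions had 61.5 ± 5.41, 71.0 ± 7.33 and 76.3 ± 6.97%. The WT and SmoM2 libraries overlapped in this share, since WT replicate 3 lay above SmoM2 replicate 2. All SmoM2-Sox9cKO libraries lay above all WT libraries. The 8 regions open throughout lay at Krt10, Krt32 (2 regions), Krt19, Krt17, Krt72 and Krt78 (2 regions). The Krt17 region (chr11:100260817-100262857) was assigned by its midpoint and reaches towards Krt42. In both Embryo libraries an interval lay within 1 kb of a Krt42 end, and none within 1 kb of a Krt17 end.

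Type I and type II loci had like shares of regions open in all 9 adult libraries, 41.6% and 41.9%, and in WT libraries 59.4 ± 8.10% and 63.8 ± 3.10% (SD, n = 3). The classes of expression differed more. The share open in all 9 adult libraries was 60.7% for internal keratins, 50% for stress, 43.8% for basal, 36.1% for hair shaft, 35.3% for simple, 35% for cornified and 29.4% for root sheath keratins. Simple keratin regions were open at 44.1, 41.2 and 50% in WT, 58.8, 58.8 and 70.6% in SmoM2 and 70.6, 52.9 and 70.6% in SmoM2-Sox9cKO. Every library of both SmoM2 groups lay above every WT library in this share. The same held for stress keratins, at 62.5 to 70.8% in WT, 75 to 83.3% in SmoM2 and 79.2 to 87.5% in SmoM2-Sox9cKO, and for cornified keratins, at 50 to 60%, 65 to 85% and 70 to 85%. The summed open regions at endothelial marker loci moved the same way. They were 21 to 24 in WT, 31 to 38 in SmoM2 and 33 to 37 in SmoM2-Sox9cKO. Those at epithelial marker loci were 61 to 68, 65 to 82 and 75 to 78. Not all marker lists rose. Muscle loci held 9 to 12, 6 to 9 and 5 to 9, and glial loci 14 to 20, 13 to 16 and 16 to 21. Fibroblast loci held 12 to 14, 14 to 16 and 15 to 17, and immune loci 6 to 7, 6 to 12 and 8 to 11. The part of these, and of list length, in these shares was not tested. For stratified keratins together the values were 61.4, 69.3 and 70.5% in WT, 70.5, 71.6 and 80.7% in SmoM2 and 84.1, 76.1 and 79.5% in SmoM2-Sox9cKO, with WT replicate 3 equal to the lowest SmoM2 library. In the remaining classes WT and SmoM2 libraries overlapped or met. Internal keratins stood at 71.4 to 82.1% in WT, 71.4 to 78.6% in SmoM2 and 82.1 to 89.3% in SmoM2-Sox9cKO. In the same order root sheath keratins had 52.9 to 64.7%, 35.3 to 70.6% and 58.8 to 88.2%. Basal keratins had 56.25 to 68.75%, 56.25 to 81.25% and 68.75 to 75%. Hair shaft keratins had 52.8 to 69.4%, 69.4 to 80.6% and 63.9 to 86.1%. Internal and root sheath means were lower in SmoM2 than in WT. These shares describe the libraries and were not tested, since regions of a locus are not replicates.

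**Figure D2:**
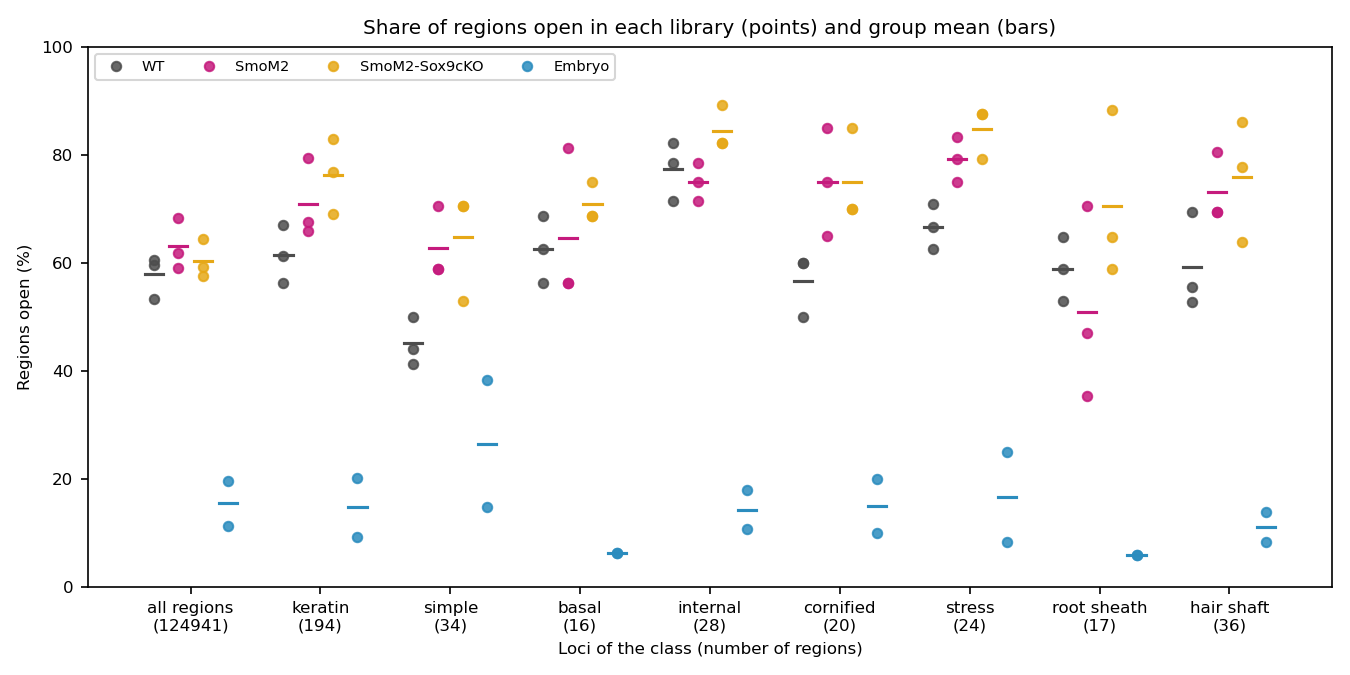
Share of regions open (%) in each library for all regions and for the loci of each keratin class, with the number of regions in brackets; points are libraries and short bars group means. Simple keratin regions show WT at 41.2 to 50% below both SmoM2 groups at 52.9 to 70.6%, and in Embryo 1 they reach 38.2% while basal regions stand at 6.25%.

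At the gene starts the classes parted further. In the window from 250 bases before to 50 after the start, 2 of 36 matched keratins (Krt5 and Krt13; 5.56%) had an interval in all 9 adult libraries, against 55.3% of 17273 matched genes. Krt20 was open in no WT library, all 3 SmoM2, 2 SmoM2-Sox9cKO and both Embryo libraries, and Krt23, a type I keratin of simple epithelia, in 2 WT, all 3 of each SmoM2 group and no Embryo library. The Krt7 window was open in WT 1 and 3, SmoM2 3 and all SmoM2-Sox9cKO libraries, the Krt18 window in SmoM2 3, SmoM2-Sox9cKO 1 and both Embryo libraries, and the Krt8 window in Embryo 2 alone. Of 17 matched hair keratins 16 had an interval in no library, and the exception was Krt75. The same held for 26 of all 36 matched keratins and for 5855 of the 17273 matched genes. With 1 kb around either gene end, which needs no start and covers all 53 genes, 19 keratins (35.8%) were open in all 9 adult libraries against 57.6% of all genes: 3 of 3 basal, 6 of 6 stress, 3 of 6 internal, 3 of 5 cornified, 1 of 6 simple (Krt19), 0 of 8 root sheath and 1 of 15 hair shaft (Krt86) genes, with Krt80 and Krt88.

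**Figure D3:**
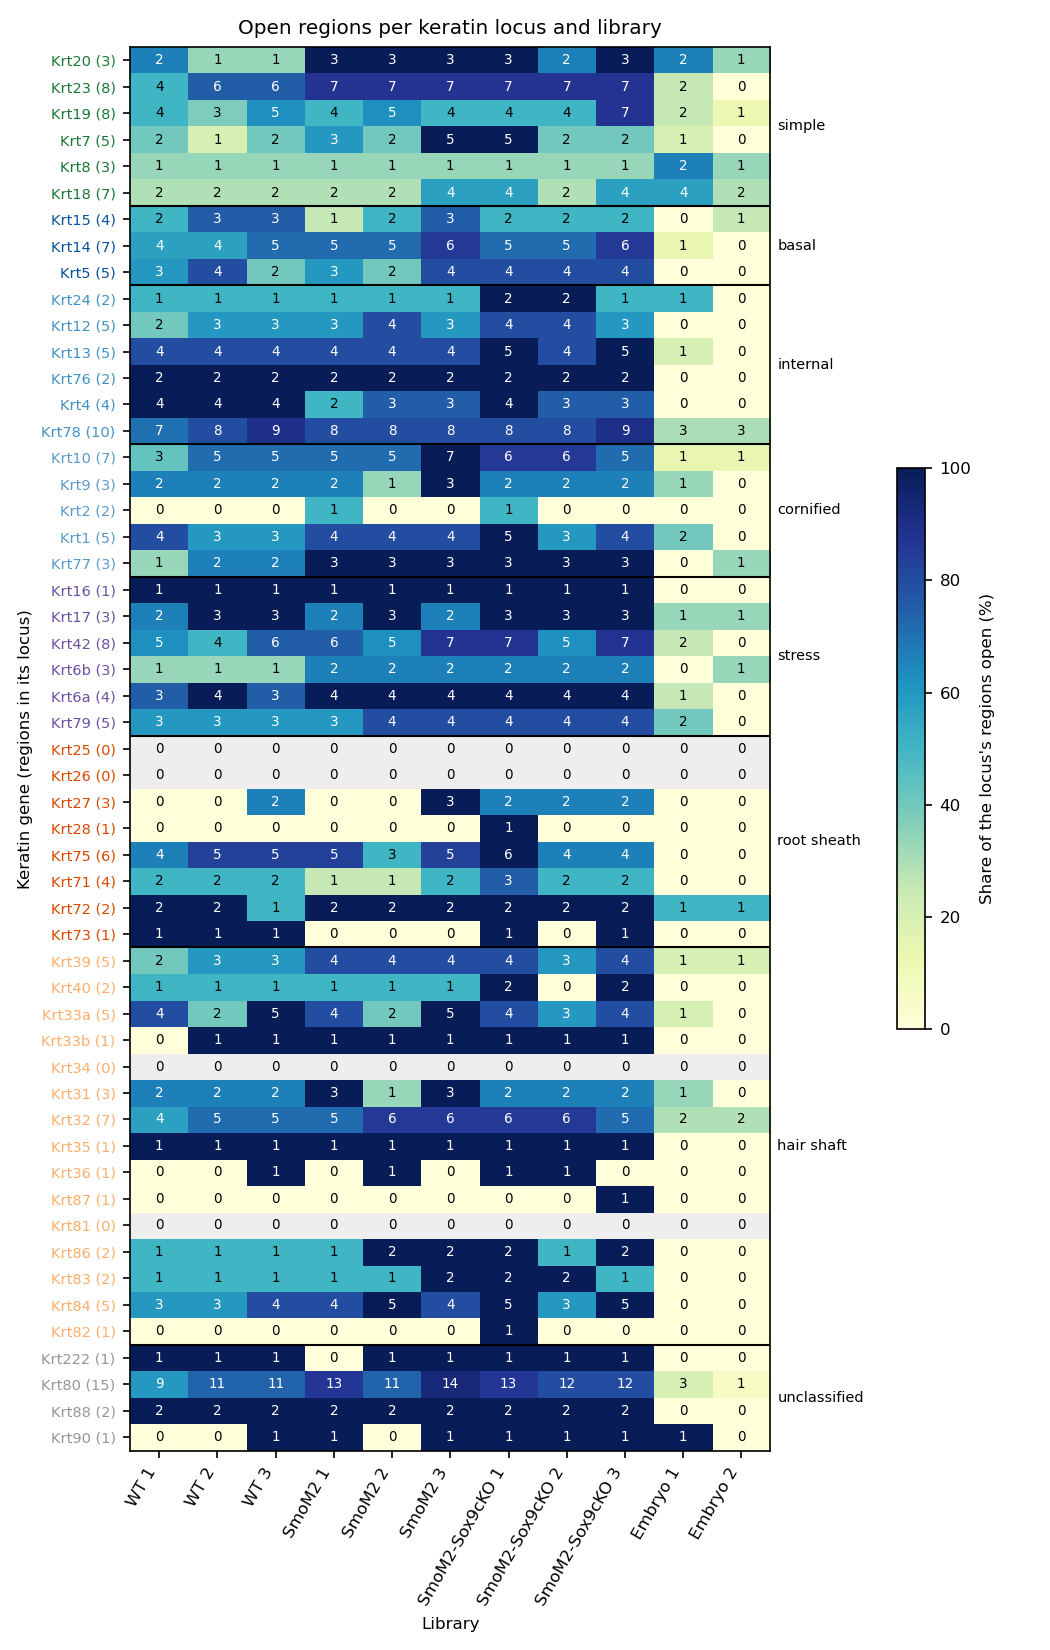
Number of open regions in each keratin locus (rows, grouped by class, regions of the locus in brackets) and library (columns), with colour giving the share of the locus's regions that were open (%) and grey rows for loci with no region. Krt6b reads 1 in each WT library and 2 in each SmoM2 and SmoM2-Sox9cKO library, Krt4 reads 4 in each WT library and 2, 3 and 3 in SmoM2, and the Embryo columns are mostly 0 or 1.

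The comparison of SmoM2 with WT asks how open regions differ where Smoothened is active. Loci were fitted with limma on the log2 of open regions scaled to the library's total, over 15361 loci with a mean of at least 1 open region. Of the 53 keratins 40 were tested, 9 had a lower mean and 4 no region. Krt6b, a type II keratin of stressed epithelium, rose (1 keratin; 5.21% of all loci were called higher), and Krt4, the type II keratin of the suprabasal esophagus, fell (1 keratin; 5.76% of all loci were called lower). That is 5% of the tested keratins against 11% of all loci. The order of these shares turned in 3 of 21 alternatives: with lists of equal length (17.9% of keratins against 9.78%), with −log10 q of at least 5 (13.2% against 10.8%) and by covered base pairs (20% against 18.5%). At an unadjusted p under 0.05 there were 4 keratins higher (10%, against 10.4% of all loci) and 2 lower (5%, against 14.3%). The median log2 change was 0.08 over the 40 keratins and -0.12 over all loci; the latter is the value of any locus with the same count in every library, such as Krt8, Krt16 and Krt35, because SmoM2 lists held more regions on average, and changes are read against it. The keratin median was not steady: without SmoM2 3 it was -0.0612 beside -0.0646 over all loci, without WT 2 it was -0.0121, and with lists of equal length both medians were near 0 (0.000187 and -0.00375).

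Krt6b held 1 open region in each WT library and 2 in each SmoM2 library, with no overlap (log2 change 0.61 ± 0.12 SE, adjusted p = 0.012 by limma with Benjamini-Hochberg adjustment). The region at its gene end (chr15:101679930-101680623) was open in all 9 adult libraries. The second (chr15:101682609-101683300), with its midpoint 2661 bp outside the gene body towards Krt6a, was open in no WT library and in all 6 libraries of the SmoM2 groups, where the authors' fold enrichment was 3.96 to 5.45. Equal counts in all libraries of a group leave only the totals to set the spread, which can make a p small. Krt6a and Krt6b are near-identical in sequence, and how the alignment treated reads that match both is not given in the sources used here. The call was kept in 19 of 20 alternatives (adjusted p from 5.14e-12 to 0.0776) and ended with a term for intervals at Y-linked genes.

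Krt4 held 4 open regions in each WT library and 2, 3 and 3 in SmoM2, so the groups did not overlap. Its log2 change was -0.65 ± 0.16 (SE), with an adjusted p of 0.0325 by limma with Benjamini-Hochberg adjustment. The region inside the gene body (chr15:101923155-101923817) was open in all WT and no SmoM2 library, with an authors' fold enrichment of 2.73 to 3.61 in WT, and it was open in SmoM2-Sox9cKO 1 and 3. Of the other regions of the locus, chr15:101924468-101925321, across one gene end, and chr15:101915827-101917945 were open in all 6 WT and SmoM2 libraries, and chr15:101909770-101910526 was closed in SmoM2 1 alone among them. This call was less steady. It was kept in 11 of 21 alternatives (adjusted p from 0.0154 to 0.125) and ended, among others, without any 1 of the 3 WT libraries (0.0654 to 0.0973), without SmoM2 1 (0.0919), without SmoM2 3 (0.0717) and without scaling to the totals (0.116). Its partner Krt13 held 4 open regions in each WT and SmoM2 library.

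The other members of the stress and basal classes were not called. Krt6a held 3, 4 and 3 open regions in WT and 4 in each SmoM2 library, Krt16 held 1 throughout, and Krt17 held 2, 3 and 3 in WT and 2, 3 and 2 in SmoM2 (log2 change -0.28 ± 0.19 SE). Krt5 held 3, 4 and 2 in WT and 3, 2 and 4 in SmoM2, and Krt14 held 4, 4 and 5 against 5, 5 and 6. The region over the Krt5 start (chr15:101712571-101715201, 2631 bp, the widest of the 194) and that over one end of Krt14 (chr11:100207348-100209254) were open in all 9 adult libraries. Krt15, a type I keratin of basal cells, held 2, 3 and 3 in WT and 1, 2 and 3 in SmoM2 (log2 change -0.53 ± 0.25 SE, limma adjusted p = 0.238). No basal keratin passed the test.

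Among simple keratins Krt20, a type I keratin of intestinal and urothelial surface cells, held 2, 1 and 1 open regions in WT and 3 in each SmoM2 library (log2 change 0.85 ± 0.25 SE, limma adjusted p = 0.0652), and the groups did not overlap. Its call was made in 5 of 21 alternatives, among them without WT 1 (0.0083). Krt23 held 4, 6 and 6 against 7 in each (0.26 ± 0.12 SE), again without overlap. Krt7, the type II keratin of ducts and simple linings, held 2, 1 and 2 against 3, 2 and 5 (0.66 ± 0.36 SE, limma adjusted p = 0.299), and the groups met at 2. Krt8 held 1 open region in all 9 adult libraries, Krt18 held 2, 2 and 2 against 2, 2 and 4, and Krt19 held 4, 3 and 5 against 4, 5 and 4. None of the 6 simple keratins passed the test, 1 was higher at an unadjusted p under 0.05, and their median log2 change was 0.21.

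In the cornified class Krt77 held 1, 2 and 2 open regions in WT and 3 in each SmoM2 library (log2 change 0.61 ± 0.17 SE, limma adjusted p = 0.0565; called in 5 of 21 alternatives). Krt1 held 4, 3 and 3 against 4 in each, Krt10 held 3, 5 and 5 against 5, 5 and 7, and Krt9 held 2 in each against 2, 1 and 3. In the root sheath class Krt71 held 2 in each WT library and 1, 1 and 2 in SmoM2 (-0.61 ± 0.18 SE, limma adjusted p = 0.067; called without SmoM2 3 at 0.0198), and Krt75 held 4, 5 and 5 against 5, 3 and 5 (-0.24 ± 0.17 SE). In the hair shaft class Krt39 held 2, 3 and 3 against 4 in each (0.40 ± 0.15 SE, limma adjusted p = 0.129), and Krt86 held 1 in each against 1, 2 and 2. Type I loci had a median log2 change of -0.00 and type II loci of 0.12, with 0 and 2 calls.

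**Figure D4:**
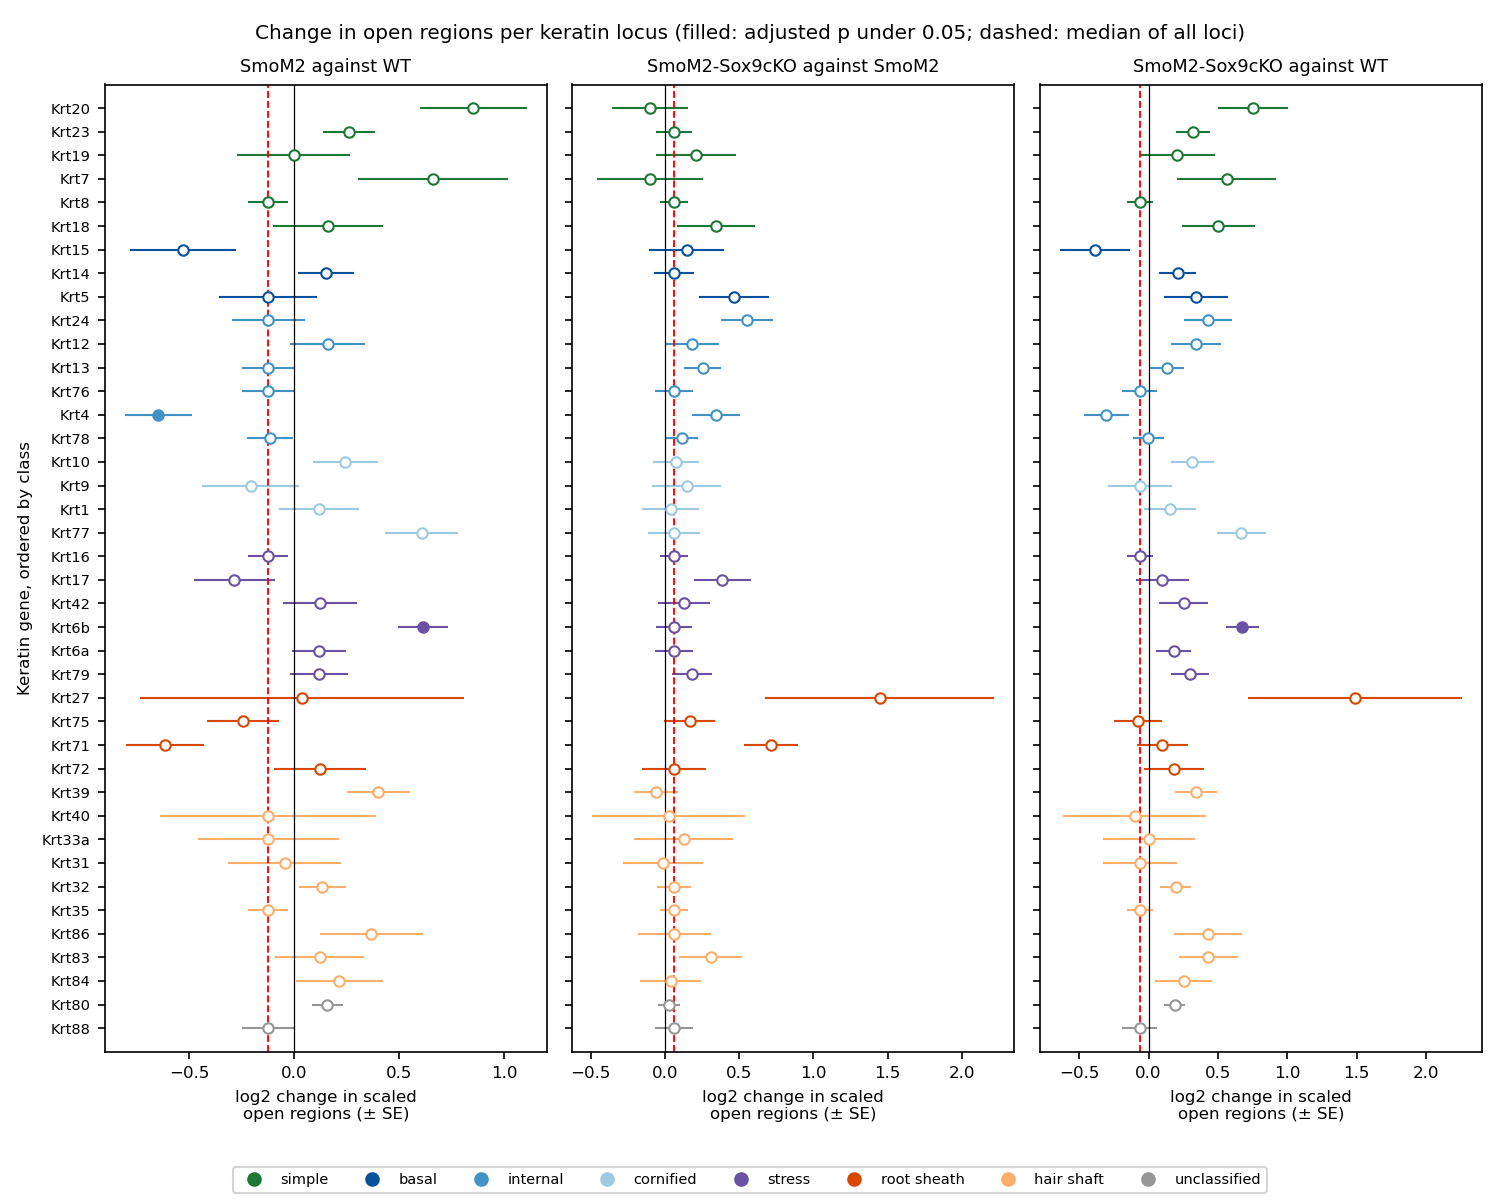
log2 change in scaled open regions (± SE) for the 40 tested keratin loci, ordered and coloured by class, in the 3 adult comparisons; filled points have an adjusted p under 0.05 and the dashed red line is the median of all loci. Krt6b is filled in both comparisons with WT and Krt4 in SmoM2 against WT only (a test of the difference between the comparisons was not made), and no point is filled in SmoM2-Sox9cKO against SmoM2.

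Single regions were also compared by a rule without a test, open in 3 of 3 libraries of one group and 0 of 3 of the other. Between SmoM2 and WT, 9 keratin regions (4.64%) were open in SmoM2 only, against 6.91% of all regions, and 5 (2.58%) in WT only, against 3.11%. The 9 were spread over 3 classes: 3 simple (of 34), 3 stratified (of 88) and 3 hair (of 53). One covers the Krt20 start (chr11:99437978-99438752), with an authors' fold enrichment of 3.70, 4.93 and 6.02 in SmoM2, and was open in SmoM2-Sox9cKO 1 and 3 and in both Embryo libraries. It spans the printed Krt20 promoter with its TATA box. Another lies inside the Krt7 gene body (chr15:101414681-101415600) and was open in SmoM2-Sox9cKO 1 and Embryo 1. The others were the Krt6b region above, regions at Krt23 (chr11:99458848-99459173), Krt39 (chr11:99506130-99506722), Krt77 (chr15:101876136-101877214) and Krt79 (chr15:101929251-101929959), each open in all SmoM2-Sox9cKO libraries, and 2 at Krt32 (chr11:100069455-100069973, open in SmoM2-Sox9cKO 2, and chr11:100089344-100090365, open in all 3).

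The 5 regions open in WT only were 3 of the root sheath genes, 1 of Krt4 (above) and 1 of Krt15. The Krt15 region (chr11:100127938-100128526), 3527 bp from the gene body, was open in no library of either SmoM2 group or of Embryo, with an authors' fold enrichment of 2.12 to 2.88 in WT. The root sheath regions lay in Krt75 (chr15:101564974-101565697), near Krt71 (chr15:101729501-101730262) and near Krt73 (chr15:101806087-101806676). In SmoM2-Sox9cKO the regions of Krt75 and Krt73 were open in replicates 1 and 3, and that of Krt71 in all 3 libraries. With an interval cut of 5 on −log10 q, 14 keratin regions were open in SmoM2 only and 1 in WT only. The shares of all regions at this cut are not given here, so these counts have no background.

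The comparison of SmoM2-Sox9cKO with SmoM2 asks what differs where Sox9 is floxed. No keratin locus was called in either direction by limma (0.423% of all loci were called higher and 0.43% lower), and 2 keratins were higher (5%, against 6.81% of all loci) and 0 lower (against 4.93%) at an unadjusted p under 0.05. The 2 were Krt71, with 1, 1 and 2 open regions in SmoM2 and 3, 2 and 2 in SmoM2-Sox9cKO (log2 change 0.71 ± 0.18 SE, adjusted p = 0.156), and Krt24, a type I keratin of the internal class, with 1 in each against 2, 2 and 1 (0.55 ± 0.17 SE, adjusted p = 0.243). Krt71 was called without SmoM2 3 (0.0435), where 2.5% of keratins and 0.697% of all loci were called higher. Krt40 was called without SmoM2-Sox9cKO 2 (2.5% against 0.331%). Krt27 had the highest log2 change (1.45 ± 0.77 SE, adjusted p = 0.554), from counts of 0, 0 and 3 against 2 in each. The median was 0.06 over keratins and over all loci.

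By the region rule 1 keratin region (0.515%) was open in SmoM2-Sox9cKO only, the Krt71 region above, against 0.678% of all regions, and 0 were open in SmoM2 only, against 1.34%. These counts moved with single libraries: the first was 2 without SmoM2 2, 5 without SmoM2 3, 7 without SmoM2-Sox9cKO 2 and 3 without SmoM2-Sox9cKO 3, and the second was 1 without SmoM2 2, without SmoM2-Sox9cKO 1 or without SmoM2-Sox9cKO 2. Leaving out a library asks less of every region, and the shares of all regions at these settings are not given here. SmoM2 3 and SmoM2-Sox9cKO 1 had the longest lists of their groups, and their part in these counts was not tested. Krt5 held 3, 2 and 4 open regions in SmoM2 and 4 in each SmoM2-Sox9cKO library (0.46 ± 0.23 SE, adjusted p = 0.519 by limma), and Krt4 held 2, 3 and 3 against 4, 3 and 3 (0.34 ± 0.16 SE, adjusted p = 0.458 by limma), so both overlapped. The 4 keratins with a log2 change under 0 were Krt20 (-0.10), Krt7 (-0.10), Krt39 (-0.06) and Krt31 (-0.02). Krt17 held 2, 3 and 2 against 3 in each (0.38 ± 0.19 SE).

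SmoM2-Sox9cKO was also set against WT, which shares its WT libraries with the first comparison and its SmoM2-Sox9cKO libraries with the second. Krt6b rose (1 keratin; 4.0% of all loci were called higher), with 2 open regions in each SmoM2-Sox9cKO library (log2 change 0.68 ± 0.12 SE, adjusted p = 0.00957 by limma), and it was called in 20 of 20 alternatives. No keratin was called lower (3.42% of all loci were), and 7 were higher (17.5%, against 10.1% of all loci) and 0 lower (against 11.3%) at an unadjusted p under 0.05. In the main fit 2.5% of tested keratins were called higher. Without WT 1 the count was 2, with Krt20 added (4.88% of keratins, against 3.37% of all loci). Without SmoM2-Sox9cKO 2 Krt40 was added (5% against 2.73%), and without SmoM2-Sox9cKO 3 Krt24 (5% against 3.47%). With any other single library left out, Krt6b alone was called. Krt77 held 3 in each SmoM2-Sox9cKO library (0.67 ± 0.17 SE, adjusted p = 0.051), Krt20 held 3, 2 and 3 (0.75 ± 0.25 SE, adjusted p = 0.117) and Krt4 held 4, 3 and 3 (-0.30 ± 0.16 SE, adjusted p = 0.332). Krt7 had 5, 2 and 2 (0.56 ± 0.36 SE) and Krt18 had 4, 2 and 4 (0.50 ± 0.26 SE), each overlapping WT. Krt15 held 2 in each (-0.39 ± 0.25 SE) and Krt75 held 6, 4 and 4 (-0.08), both overlapping WT. Krt40 held 2, 0 and 2 (-0.10) where each WT library held 1, so its libraries lay on both sides of WT. Krt27 held 0, 0 and 2 in WT and 2 in each (1.49 ± 0.77 SE). The median log2 change was 0.19 over keratins, 0.41 over the 6 simple keratins and -0.06 over all loci.

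By the region rule 8 keratin regions (4.12%) were open in SmoM2-Sox9cKO only, against 4.26% of all regions, and 1 (0.515%) in WT only, against 2.69%. The 8 included a region at Krt5 (chr15:101715764-101716189), 3071 bp from the gene body, that was also open in SmoM2 3, and one at Krt42 (chr11:100274710-100275090), also open in SmoM2 1 and 3. The rest were the 6 regions at Krt6b, Krt23, Krt39, Krt77, Krt79 and Krt32 described for SmoM2, and the 1 lost was the Krt15 region. The first count was 15 without WT 3 and 14 without SmoM2-Sox9cKO 2, and the second 2 without WT 3. A rule with a library left out asks less of every region, and its shares of all regions are not given here.

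Embryo lists were a fraction of the adult length, which alone leaves fewer regions open, so Embryo was described and not tested. By the rule 2 of 2 against 0 of 3, 2 keratin regions (1.03%) were open in Embryo and not WT, against 0.708% of all regions, and 69 (35.6%) in WT and not Embryo, against 32.2%. Both of the former lay over starts of simple keratins. One was the Krt20 start, with an authors' fold enrichment of 4.18 and 3.29 in Embryo. The other was the Krt18 start (chr15:102028041-102028490, 2.67 and 3.21), also open in SmoM2 3 and SmoM2-Sox9cKO 1, which overlaps the printed Krt18 promoter. With Embryo 1 alone the count was 12 and with Embryo 2 alone 5, and the matching shares of all regions are not given here. The 69 were 16 of 28 internal, 7 of 16 basal, 10 of 24 stress, 5 of 20 cornified, 7 of 17 root sheath, 10 of 36 hair shaft, 7 of 34 simple and 7 of 19 unclassified keratin regions.

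Within Embryo, simple keratin regions were open at 38.2 and 14.7%, stratified at 18.2 and 9.09% and hair at 11.3 and 7.55%, where all regions stood at 19.6 and 11.2%. With every list cut to its 14255 strongest intervals, simple keratin loci held 6 and 5 open regions in Embryo and 0 to 3 in the adult libraries, while stratified loci held 9 and 8 against 3 to 13; the cornified loci among them held 2 and 2 against 0 in every adult library. Krt8, whose transgene marked the sorted cells, held 2 and 1 open regions, and its start (chr15:102004191-102004600) was open in Embryo 2 alone of the 11 libraries. A broad region before the Krt8 start (chr15:102005178-102007082) was open in all 9 adult libraries and in Embryo 1. The Krt19 start (chr11:100145032-100146613) was open in all 11 libraries, with an authors' fold enrichment of 6.22 and 4.08 in Embryo and 2.74 to 4.72 in the adults. Krt5 held none in either Embryo library, Krt14 held 1 and 0, and Krt4 0 and 0. Of 9 keratin regions open in Embryo only, 6 belonged to simple keratins (2 of Krt8, 2 of Krt18, and 1 each of Krt19 and Krt23), and each was open in 1 of the 2 libraries. The 9 are 4.64% of keratin regions, against 3.70% of all regions open in Embryo only.

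Genes that work with keratins were read from lists. Of 16 partners of desmosomes, hemidesmosomes and the cell envelope, 16 were tested and 0 were called in any of the 3 limma comparisons. Of all loci, 11% were called in SmoM2 against WT, 0.853% in SmoM2-Sox9cKO against SmoM2 and 7.41% in SmoM2-Sox9cKO against WT. Beside these shares, 0 calls in a short list say little. In the same order the list's median log2 changes were -0.10, 0.06 and -0.06, near the medians of all loci. At an unadjusted p under 0.05 the list had 0 higher and 1 lower, 1 and 0, and 0 and 1, where all loci had 10.4% and 14.3%, 6.81% and 4.93%, and 10.1% and 11.3%. Of 16 other intermediate filament genes 15 were tested and 0 called. At an unadjusted p under 0.05, 3 (20%) were higher and 0 lower in SmoM2 against WT. There were 1 and 1 (6.67% each) in SmoM2-Sox9cKO against SmoM2, and 3 (20%) and 0 in SmoM2-Sox9cKO against WT. The shares of all loci are those just given. Of 23 Krtap genes on chromosome 11, 6 were tested and 0 called, with 1 higher (16.7%, against 10.1% of all loci) at an unadjusted p under 0.05, in SmoM2-Sox9cKO against WT.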

How the data were processed

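Sorted mouse esophagus cells were profiled by ATAC-seq in 11 libraries. Per the submitters' processing notes, the tools were Trimmomatic, Bowtie2, Picard, MACS2 and deepTools with GRCm38/mm10; the notes used here state no versions or settings. The score, the fold enrichment (a ratio) and the −log10 p and −log10 q columns of each list were deposited by the authors; scores were not used. Read depth is unknown.

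Repeated lines of an interval were joined, autosomes and X were used, and the 11 lists were merged into regions at 1 bp overlap. Each region was assigned by its midpoint to the closest protein-coding gene, up to 100 kb away. Locus counts were tested with limma 3.58.1 (R 4.3.3; trend on, robust off) on log2((open regions + 0.5) / (total + 1) × 100000), 9 adult libraries in one fit, mean of at least 1 open region, Benjamini-Hochberg adjustment within each comparison, threshold 0.05. More open regions in a locus is neither stronger signal nor expression. Steps were tested on simulated data. The members, classes and lists were chosen with earlier results of these data known.

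Named were 14 keratins always, every called keratin, up to 5 others per direction and comparison by absolute log2 change, and up to 10 regions per set. Alternatives covered interval strength, list length, filters, pseudocounts, scaling, locus reach, covered base pairs, the replicate number as a block and omission of single libraries; a term for intervals at Y-linked genes and single Embryo libraries were added after the data were seen.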

Additional observations from a re-analysis of the deposited data

How the results depend on the processing

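No called locus changed direction. The keratin median in SmoM2 against WT (0.08) turned negative without SmoM2 3 (-0.0612), without WT 2 (-0.0121) and with no filter (-0.00222), and that in SmoM2-Sox9cKO against SmoM2 (0.06) did with lists of equal length (-0.000133). Keratin loci called higher in SmoM2 against WT numbered 1, and 5 with intervals of −log10 q of at least 5 (13.2% of keratins, against 5.39% of all loci), 5 with lists of equal length (12.8% against 5.20%), 2 with no filter (4.08% against 5.11%), 2 with a mean of at least 2 (6.90% against 7.65%; Krt6b was not tested), 6 by covered base pairs (15% against 8.5%), and 1 to 2 leaving out each library; with the Y-linked term it stayed 1, but the locus was Krt77. Those called lower numbered 1, and 0 with −log10 q of at least 5, 2 with equal lengths (5.13% against 4.58%), 2 with no filter (4.08% against 5.52%), 0 without scaling, 0 with the Y-linked term, 2 by covered base pairs (5% against 10.1%), 0 with only the 6 libraries compared and 0 to 1 leaving out each library, where without SmoM2 3 the 1 was Krt71. The higher count of 2 in SmoM2 against WT with a library left out was without WT 1 (4.88% against 4.54%). In SmoM2-Sox9cKO against SmoM2 the higher count of 0 became 0 to 1 leaving out each library. It was 1 without SmoM2 3 (2.5% against 0.697%) and without SmoM2-Sox9cKO 2 (2.5% against 0.331%). In SmoM2-Sox9cKO against WT the higher count of 1 became 5 with −log10 q of at least 5 (13.2% against 4.29%), 4 with equal lengths (10.3% against 4.07%), 2 with no filter (4.08% against 4.0%), 2 with the Y-linked term (5% against 3.53%), 9 by covered base pairs (22.5% against 6.93%) and 1 to 2 leaving out each library. Without scaling, 69.1% of all calls in SmoM2 against WT and 66.1% in SmoM2-Sox9cKO against WT were higher, against 47.5% and 53.9% with it. The causes were not tested.

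Libraries that share a number did not deviate together in their locus counts (correlations of -0.0672 to 0.0804). This cannot show whether they were prepared together, and the main fit did not pair them. With the replicate block the lower count in SmoM2 against WT was 0, with Krt4 at an adjusted p of 0.0617, and the other keratin counts did not change.

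Regions open in SmoM2 and not WT numbered 9, and 14 with −log10 q of at least 5 and 15 with 2 of 3 libraries; those in WT and not SmoM2 numbered 5, and 1 with −log10 q of at least 5. Regions open in SmoM2-Sox9cKO and not SmoM2 numbered 1, and 3 with −log10 q of at least 5, 3 with equal lengths, 2 with 25% of the region covered, 9 with 2 of 3 libraries and 1 to 7 leaving out each library; the reverse count of 0 became 1 with equal lengths, 1 with 2 of 3 libraries and 0 to 1 leaving out each library. Regions open in SmoM2-Sox9cKO and not WT numbered 8, and 16 with −log10 q of at least 5, 18 with 2 of 3 libraries and 9 to 15 leaving out each library; the reverse count of 1 became 2 with equal lengths, 2 with 2 of 3 libraries and 1 to 2 leaving out each library. Regions open in Embryo and not WT numbered 2, and 0 with −log10 q of at least 5, 4 with equal lengths and 2 to 12 leaving out each library; the reverse count of 69 became 3 with equal lengths. The shares of all regions under these altered rules are not given here, so the altered counts have no background. Asking for 2 of 3 libraries, or leaving a library out, asks less of every region. Depth is unknown, so an interval missing from a list is not evidence of closed chromatin.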
